A study of Bos taurus with 33 samples.

Results

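The 10 genes described here make, move or commit pyruvate and lactate, and their transcripts were followed in bovine oocytes and in the cumulus cells (CC) that enclose them. The set was LDHA, LDHB, SLC16A1, SLC16A3, SLC16A7, MPC1, MPC2, PDHA1, PDK1 and PDK4, taken by symbol from a list of 10 names, of 17543 genes listed in the oocyte table, the CC table or both. All 10 were listed in both tables and were joined by Ensembl identifier. Their identifiers are ENSBTAG00000008683 for LDHA, ENSBTAG00000019603 for LDHB, ENSBTAG00000015107 for SLC16A1, ENSBTAG00000017461 for SLC16A3 and ENSBTAG00000021287 for SLC16A7. Those of the mitochondrial steps are ENSBTAG00000027879 for MPC1, ENSBTAG00000020968 for MPC2, ENSBTAG00000019852 for PDHA1, ENSBTAG00000016836 for PDK1 and ENSBTAG00000014069 for PDK4.

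Pyruvate is the end product of glycolysis, and lactate dehydrogenase converts it to lactate and back. Carriers of the SLC16 family move both across the plasma membrane, the mitochondrial pyruvate carrier takes pyruvate into the matrix, and pyruvate dehydrogenase turns it into acetyl-CoA unless pyruvate dehydrogenase kinases switch the enzyme off. Mammalian oocytes use glucose poorly, and they are known to take up pyruvate and lactate that cumulus cells make from glucose.

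The study asked how the status of the ovulatory follicle relates to transcripts of the oocyte and its CC in suckled postpartum beef cows. Cows received GnRH on day -9, prostaglandin F2 alpha on day -2 and, in the induced groups, a second GnRH injection (GnRH2) on day 0. Small follicles were up to 11.7 mm and large follicles at least 12.7 mm in diameter, and both were exposed to a surge of gonadotropin induced by GnRH2. Spontaneous follicles measured 11.7 to 14.0 mm in cows that came into estrus with their own surge and had no GnRH2, so diameter, the source of the surge and the timing of estrus cannot be told apart in any comparison with them. Complexes were aspirated about 23 h after GnRH2 or estrus by the protocol and about 20 h by the sample descriptions, before ovulation, and oocytes were stripped of CC with hyaluronidase. Each library was a pool of 4 oocytes or of the CC of 4 complexes, with 6 small, 6 large and 4 spontaneous oocyte pools and 6 small, 6 large and 5 spontaneous CC pools. Each pool averages several complexes, so the spread between pools does not give that between single complexes, and in bulk RNA fewer cells of a type cannot be told apart from less RNA per cell.

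The deposited unit was CPM, reads on a gene scaled to a library total of 1000000. Library totals ran from 7664375 to 17934916 reads in oocytes and from 1911600 to 5772431 in CC, so that 3 reads, the limit that a count of 0 allows, were worth at most 0.391 CPM in oocytes and 1.57 CPM in CC. That limit covers counting error only. All 8 oocyte markers had reads in every oocyte pool (6712 to 10680 CPM summed), against 1.57 to 13.7 CPM in CC pools, where 6 of the 8 were listed. The 10 CC and granulosa markers summed to 4092 to 11806 CPM in CC pools and to 217 to 927 CPM in oocyte pools, where HAS2 (median 186 CPM, against 50.5 in CC) and PTGS2 (152, against 1724 in CC) had the highest medians. The other 8 had medians of at most 30.9 CPM in oocytes, among them TNFAIP6 at 7.82 against 1302 CPM in CC, PTX3 at 0.967 against 251 CPM and FSHR without a read in 11 of 16 oocyte pools. White blood cell markers summed to 18.1 to 137 CPM, theca markers to 237 to 2924 CPM and endothelial markers to 7.38 to 71.7 CPM in CC pools, and red blood cell markers to at most 4.18 CPM. The theca sum was led by INSL3 (median 360 CPM) and COL1A1 (235 CPM), while CYP17A1 had no read in 10 of 17 CC pools. COL1A2, COL3A1 and ACTA2 had medians of 4.31, 3.92 and 6.36 CPM, although COL1A2 reached 2117 CPM. Theca markers had medians of 537, 718 and 703 CPM in small, large and spontaneous CC, and white blood cell markers of 59.0, 32.8 and 61.2 CPM, and their part in the results on CC was not tested. In oocyte pools white blood cell markers summed to 130 to 292 CPM, led by CSF1R (median 172 CPM), while PTPRC, CD2 and CD53 had no read in 14 of 16 pools each and ITGAM in 16. Endothelial markers summed to 97.6 to 172 CPM there, led by TEK (median 82.4 CPM), with no read of PECAM1 in 12 of 16 pools. The CC pool labelled small replicate 3 stood apart, with the fewest reads and 44.0% of its CPM on mitochondrially encoded proteins, against 12.6 to 31.6% in the other CC pools.

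Abundance was compared between follicle classifications with limma on log2(CPM + 1), two-sided, in all transcripts that reached 5 CPM in 4 or more oocyte pools or in 5 or more CC pools. Each log2 fold change is taken on that scale, as the later-named classification less the earlier-named one, which understates changes of transcripts with low CPM. The threshold was a nominal p no higher than 0.01, and p-values adjusted over all tested transcripts stand beside it. All 10 genes passed the filter in CC and 9 in oocytes, where SLC16A7 did not. Mean CPM were set against each other in an exact permutation test as well, two-sided, whose smallest possible p was 0.00216 for CC and for small against large oocyte pools and 0.00476 for the other oocyte comparisons. Nothing in the labels names the cows behind a pool, so p-values measure the spread between these pools.

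The main difference lay in CC from small follicles, in which the transcripts for lactate production and lactate export were less abundant. LDHA, SLC16A3 and PDK1 had lower means in small than in large CC pools, and 2 of the 10 genes (LDHA and SLC16A3) met the threshold, where 0.813% of all 9712 transcripts did. The study had reported both as differentially expressed, and the members were chosen with earlier results known, so this count is not independent evidence. Between small and spontaneous CC 1 of 10 genes (LDHA) met the threshold, beside 2.38% of all transcripts, and from large to spontaneous CC 0 of 10 did, beside 1.66%. In oocytes 0 of 9 genes met the threshold in each comparison, beside 0.655% of 10076 transcripts for small and large, 0.774% for small and spontaneous and 0.943% for large and spontaneous pools. No oocyte comparison had a member with a nominal limma p under 0.05 either. None of the members passed an adjusted p of 0.05 in any comparison. The smallest adjusted limma p of a member was 0.39, for LDHA from small to spontaneous CC.

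The background of these counts depends on how libraries are scaled. Of the 79 transcripts past the threshold from small to large CC, 67 were higher and 12 lower in large, but 44 and 26 after median-of-ratios scaling and 27 and 40 when CPM were recomputed without mitochondrially encoded genes. From small to spontaneous CC the split was 221 and 10, against 79 and 47 and 67 and 53 in those settings, and from large to spontaneous CC 141 and 20, against 62 and 56 and 83 and 38. In oocytes the split from small to large was 45 and 21, against 39 and 31 after median-of-ratios scaling. The median log2 fold change of all transcripts was 0.05 from small to large CC, 0.16 between small and spontaneous CC and 0.11 between large and spontaneous CC. After median-of-ratios scaling these medians were -0.01, 0.01 and 0.01.

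**Figure D1:**
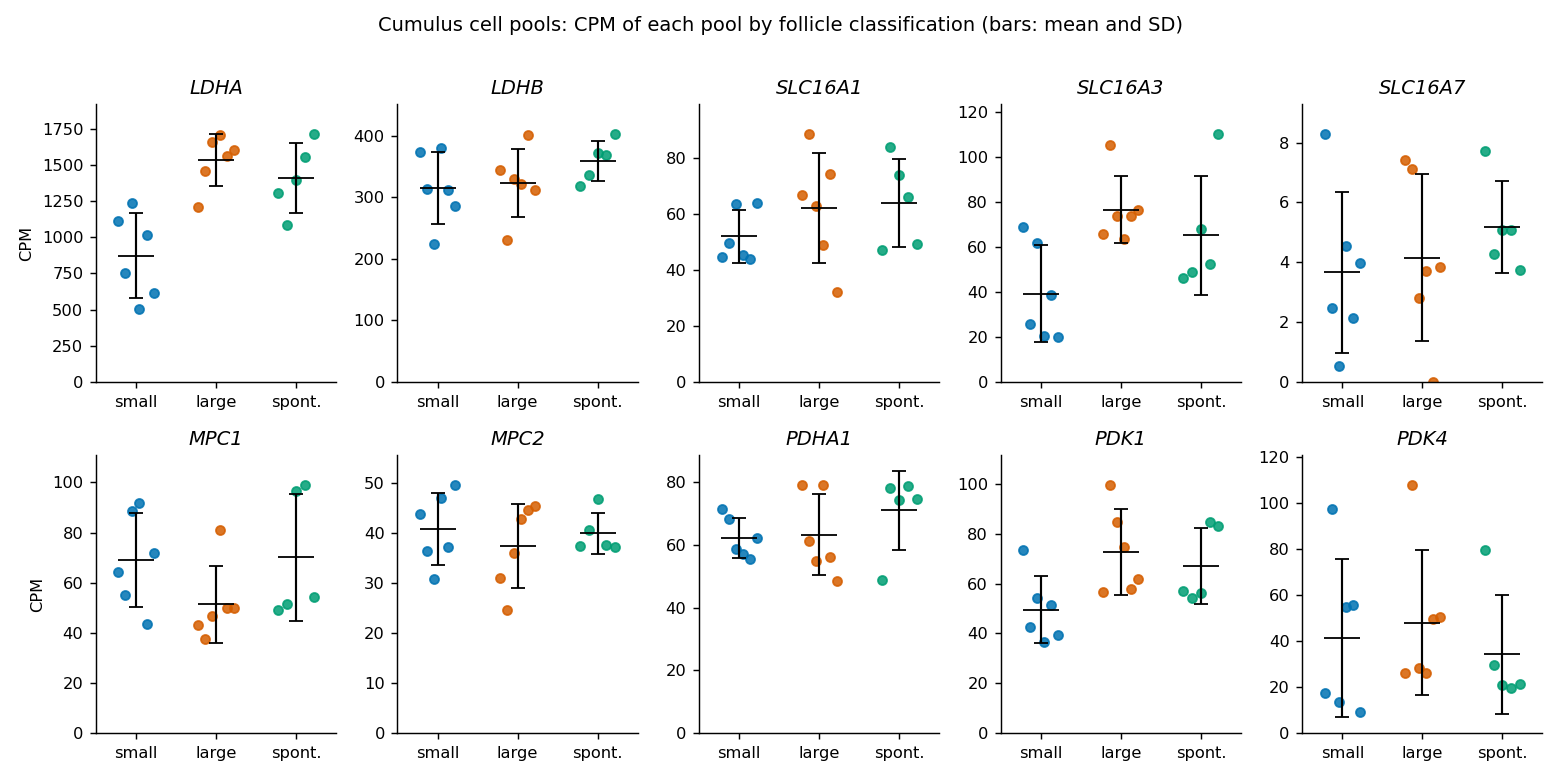
CPM (y axis, from 0) of the 10 genes in each CC pool, by follicle classification (x axis). Points are pools, and bars give the mean and SD of 6 small, 6 large and 5 spontaneous pools. LDHA lies at 504 to 1238 CPM in small pools and at 1208 to 1709 CPM in large pools, and SLC16A3 at 19.9 to 69.0 against 63.6 to 105 CPM.

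LDHA encodes the A subunit of lactate dehydrogenase, the form that favors the reduction of pyruvate to lactate. In small CC pools LDHA ranged from 504 to 1238 CPM (median 884), and in large CC pools from 1208 to 1709 CPM (median 1581). Spontaneous CC pools held 1303, 1081, 1398, 1556 and 1712 CPM. In all, 5 of the 6 large pools were above every small pool, and 5 of the 6 small pools were below every large pool.

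The group means of LDHA were 873 ± 292 CPM (SD, n = 6) in small, 1532 ± 181 CPM (SD, n = 6) in large and 1410 ± 241 CPM (SD, n = 5) in spontaneous CC pools. LDHA was 0.88 ± 0.21 (SE) higher on the log2 scale in large than in small CC, a 1.76-fold difference in mean CPM (limma nominal p = 0.000524, adjusted p = 0.999, exact permutation p = 0.00433). In edgeR's quasi-likelihood test on the recovered reads this difference was 0.69 and missed the threshold.

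Spontaneous CC held 1.62-fold more LDHA than small CC, with a log2 fold change of 0.75 ± 0.23 (SE; limma nominal p = 0.00449, adjusted p = 0.39) and an exact permutation p of 0.013. Small CC pools also carried a larger share of mitochondrially encoded CPM (median 23.5%) than spontaneous ones (15.6%), and the call was lost when those genes were left out (0.57), after median-of-ratios scaling (0.59), with edgeR (0.48) and with DESeq2 (0.47). It was also lost without small replicate 2, 4 or 6 or spontaneous replicate 4 or 5, at 0.60 to 0.72. The small CC pool with 44.0% mitochondrial CPM had the highest LDHA of the small pools, 1238 CPM. Large and spontaneous CC did not differ beyond the spread between pools (log2 fold change -0.13, 95% interval -0.47 to 0.21, exact permutation p = 0.359).

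In oocytes LDHA lay lower than in most CC pools and did not follow the same order. Small oocyte pools ranged from 321 to 626 CPM (median 501), large oocyte pools from 266 to 815 CPM (median 397), and spontaneous oocyte pools held 374, 353, 532 and 504 CPM. The 3 classifications overlapped throughout, and the log2 fold change from small to large was -0.20 (95% interval -0.59 to 0.19).

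LDHB encodes the B subunit, the form linked to the oxidation of lactate to pyruvate. In CC it ranged from 225 to 381 CPM in small pools (median 313) and from 231 to 402 CPM in large pools (median 326), and it was 319, 337, 372, 368 and 403 CPM in spontaneous pools. These groups overlapped, with a log2 fold change from small to large of 0.04 (95% interval -0.33 to 0.41) that turned negative under other scalings. Oocyte pools held far less, with 37.7 to 74.8 CPM in small (median 54.3), 31.7 to 70.4 CPM in large (median 40.9) and 55.2, 42.5, 61.7 and 75.2 CPM in spontaneous pools. Every CC pool was above every oocyte pool.

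**Figure D2:**
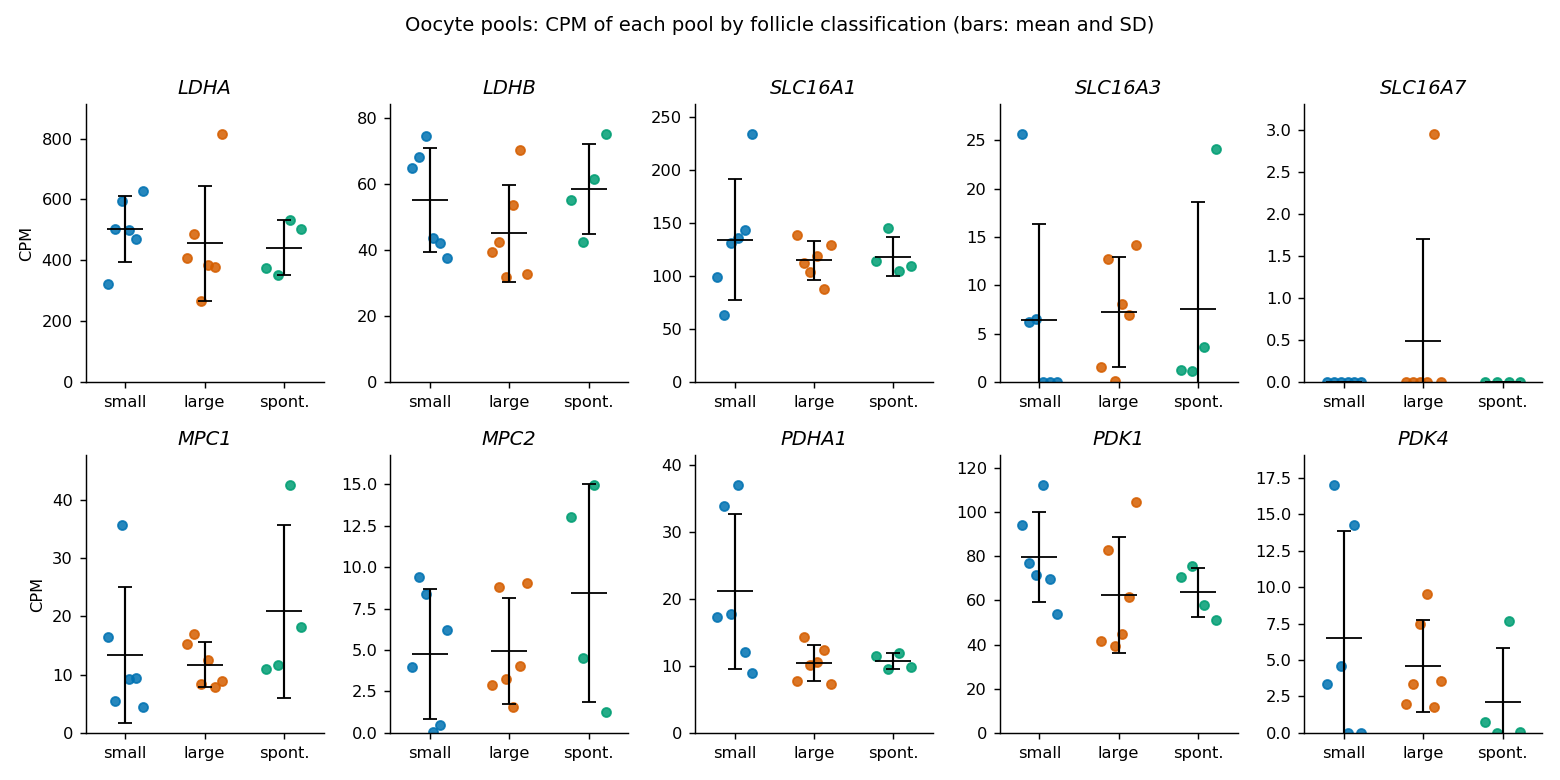
CPM (y axis, from 0) of the 10 genes in each oocyte pool, by follicle classification (x axis). Points are pools, and bars give the mean and SD of 6 small, 6 large and 4 spontaneous pools. The classifications overlap for all 10 genes, and SLC16A7 has reads in 1 large pool only, at 2.95 CPM.

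SLC16A3 encodes monocarboxylate transporter MCT4, known for the export of lactate from glycolytic cells. In small CC pools SLC16A3 ranged from 19.9 to 69.0 CPM (median 32.1), in large CC pools from 63.6 to 105 CPM (median 73.8), and in spontaneous CC pools it was 46.2, 49.0, 68.1, 52.3 and 110 CPM. Of the small pools, replicate 1 lay within the range of the large pools. Means were 39.2 ± 21.5 CPM (SD, n = 6) in small, 76.4 ± 14.9 CPM (SD, n = 6) in large and 65.1 ± 26.5 CPM (SD, n = 5) in spontaneous CC.

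Large CC held 1.95-fold more SLC16A3 than small CC, with a log2 fold change of 1.10 ± 0.29 (SE; limma nominal p = 0.00124, adjusted p = 0.999) and an exact permutation p of 0.00866. On recovered reads the difference was 0.87 with edgeR and 0.86 with DESeq2, past the threshold in neither. From small to spontaneous CC the log2 fold change was 0.81 ± 0.33 (SE), which missed the threshold (limma nominal p = 0.0251, adjusted p = 0.516, exact permutation p = 0.106). Without small replicate 1 it was 1.01 and without small replicate 3 it was 0.97, and both met it.

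In oocytes SLC16A3 was low and uneven. Small oocyte pools held 25.6, 6.21, 6.52, 0, 0 and 0 CPM, large oocyte pools 0.0777 to 14.2 CPM (median 7.47), and spontaneous oocyte pools 1.26, 1.15, 3.57 and 24.1 CPM. Reads were found in 13 of 16 oocyte pools, and the intervals of the log2 fold changes were wide, from -0.90 to 2.51 for small to large. Among CC markers with low levels in oocytes, TNFAIP6 ranged from 0.594 to 116 CPM and INHA from 2.45 to 138 CPM across oocyte pools, and their part in these values was not tested.

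SLC16A1 encodes MCT1, a carrier that moves lactate and pyruvate in either direction. Its CPM in CC were 44.1 to 64.1 in small pools (median 47.7), 32.3 to 88.6 in large pools (median 64.8), and 47.2, 83.9, 74.1, 66.1 and 49.2 in spontaneous pools. Oocyte pools held 63.1 to 234 CPM in small (median 133), 87.2 to 139 CPM in large (median 115) and 114, 145, 105 and 110 CPM in spontaneous. No pair of classifications differed beyond the spread between pools in either cell type. The exact permutation p-values were 0.156 to 0.879 in CC and 0.519 to 0.776 in oocytes. SLC16A1 and PDK1 were the only members with a higher median CPM in oocytes than in CC, at 1.85-fold and 1.23-fold, with overlapping pools in both.

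SLC16A7 encodes MCT2, a carrier with high affinity for pyruvate. It was scarce in CC, at 0.523 to 8.28 CPM in small pools (median 3.22), 0 to 7.42 CPM in large pools (median 3.77) and 7.73, 4.29, 5.08, 5.08 and 3.75 CPM in spontaneous pools. In oocytes it had no reads in 15 of 16 pools and 2.95 CPM in large replicate 5. Zeros in the oocyte pools allowed up to 0.391 CPM.

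MPC1 and MPC2 encode the subunits of the mitochondrial pyruvate carrier, which work as a pair. In CC, MPC1 ranged from 43.4 to 91.7 CPM in small pools (median 68.0) and from 37.4 to 81.2 CPM in large pools (median 48.4), and spontaneous pools held 49.1, 51.3, 96.6, 98.9 and 54.5 CPM. Replicate 4 was the highest of the large CC pools, and each of the other 5 lay below the median of the small pools. The log2 fold change from small to large was -0.42 (95% interval -0.90 to 0.07, exact permutation p = 0.102) and that from large to spontaneous 0.41 (95% interval -0.09 to 0.92, exact permutation p = 0.175). Neither met the threshold, and the groups overlapped.

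MPC2 was even in CC, with 30.9 to 49.5 CPM in small pools (median 40.5), 24.6 to 45.4 CPM in large pools (median 39.3) and 37.4, 40.6, 46.8, 37.6 and 37.3 CPM in spontaneous pools. In oocytes both subunits were lower and spread widely between pools of a class. MPC1 there was 4.48 to 35.6 CPM in small (median 9.29), 7.94 to 16.999 CPM in large (median 10.7) and 11.0, 11.6, 42.5 and 18.2 CPM in spontaneous pools. MPC2 was 0.0818 to 9.39 CPM in small (median 5.09), 1.54 to 9.04 CPM in large (median 3.66) and 13.0, 4.52, 14.9 and 1.28 CPM in spontaneous pools. For MPC2 every CC pool was above every oocyte pool, whereas for MPC1 the ranges overlapped.

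PDHA1 encodes the catalytic alpha subunit of pyruvate dehydrogenase, the site at which the kinases act. In CC it was 55.4 to 71.5 CPM in small pools (median 60.4), 48.5 to 79.0 CPM in large pools (median 58.7) and 48.9, 78.0, 74.4, 78.8 and 74.7 CPM in spontaneous pools. Of the spontaneous CC pools, 4 of 5 were above every small pool, but the exact permutation p was 0.162 and the log2 fold change 0.17 (95% interval -0.20 to 0.55).

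In oocytes PDHA1 was 17.4, 33.9, 17.7, 37.0, 12.1 and 8.96 CPM in small pools, 7.27 to 14.4 CPM in large pools (median 10.4) and 11.5, 9.51, 11.9 and 9.81 CPM in spontaneous pools. Of the small oocyte pools, 4 of 6 were above every large pool, and all 6 large pools were below the median of the small pools. Mean CPM in large was 0.493-fold that in small (exact permutation p = 0.0346), while the log2 fold change of -0.82 ± 0.47 (SE) missed the threshold (limma nominal p = 0.0882, adjusted p = 0.997). All CC pools were above all oocyte pools for PDHA1.

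PDK1 and PDK4 encode kinases that phosphorylate PDHA1 and shut the complex. In small CC pools PDK1 ranged from 36.4 to 73.6 CPM (median 46.9), in large CC pools from 56.5 to 99.7 CPM (median 68.5), and in spontaneous CC pools it was 57.0, 54.4, 56.3, 84.9 and 83.1 CPM. Small pools other than replicate 1 were below every large and every spontaneous pool, small replicate 3 by a narrow margin. PDK1 was 1.46-fold higher in mean CPM in large than in small CC, with a log2 fold change of 0.55 ± 0.22 (SE). It missed the threshold (limma nominal p = 0.0207, adjusted p = 0.999, exact permutation p = 0.026). When small replicate 1 was left out the difference was 0.67 and passed. Spontaneous CC exceeded small CC by 0.44 ± 0.22 (SE; exact permutation p = 0.0714).

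In oocytes PDK1 was 53.8 to 112 CPM in small pools (median 74.0), 39.3 to 104 CPM in large pools (median 53.1) and 70.4, 75.4, 57.7 and 51.2 CPM in spontaneous pools. The order of the medians was thus the opposite of that in CC, although each oocyte difference lay within the spread between pools (exact permutation p = 0.225 for small to large).

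PDK4, a kinase known to rise with fasting and fatty acid use, had the widest spread of the 10 genes over the 17 CC pools, with an SD of 71.3% of the mean. It was 17.2, 97.3, 13.6, 54.7, 55.6 and 9.18 CPM in small CC pools, 26.0 to 108 CPM in large pools (median 38.8) and 79.8, 29.6, 20.7, 19.6 and 21.2 CPM in spontaneous pools. The SD was 34.3 CPM around a mean of 41.2 CPM in small CC. No comparison of PDK4 met the threshold in either cell type. In oocytes it lay between 0 and 17.005 CPM, without reads in 3 of 16 pools.

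**Figure D3:**
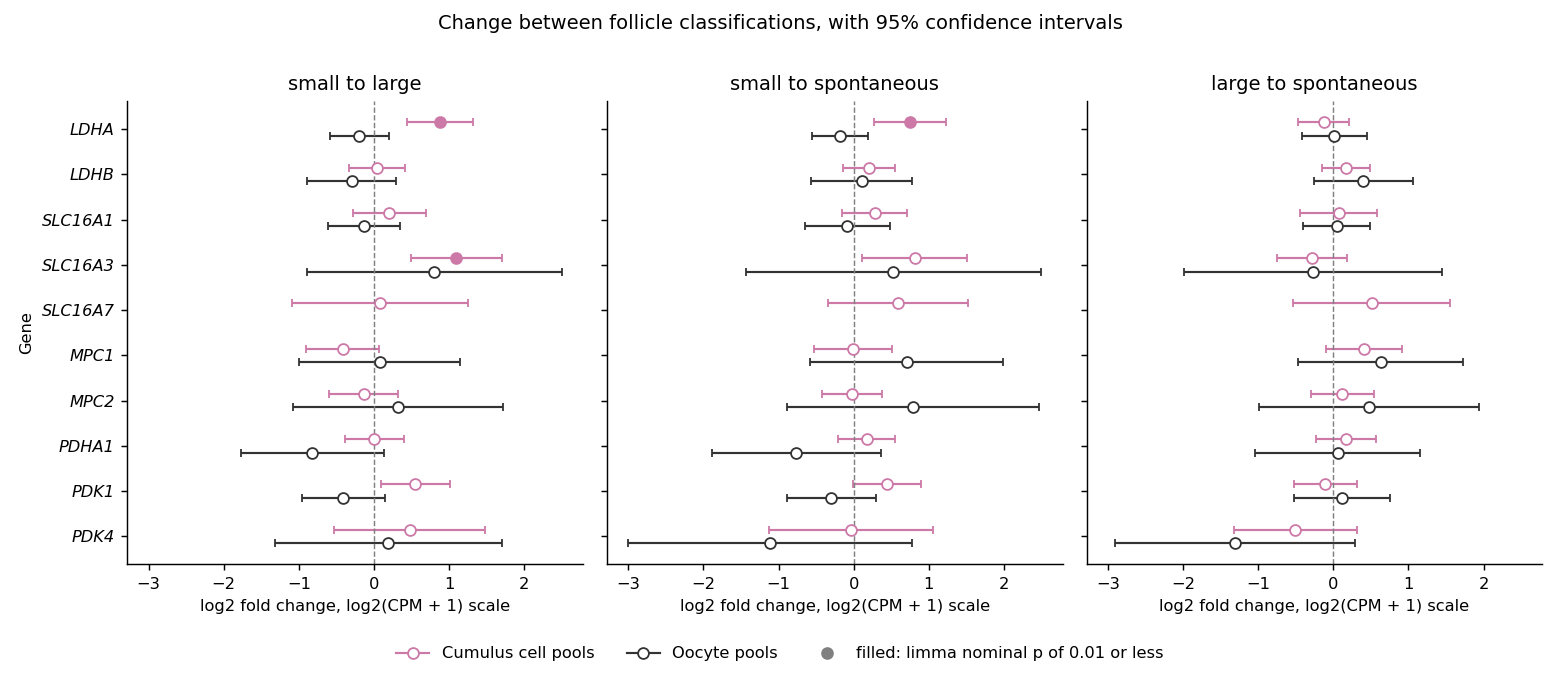
Log2 fold changes on the log2(CPM + 1) scale (x axis) of each gene (y axis) between follicle classifications, in CC and oocyte pools. Bars are 95% confidence intervals from limma and filled points mark a nominal p of 0.01 or less. In CC the intervals of LDHA and SLC16A3 exclude 0 in both comparisons with small pools, and that of PDK1 from small to large.

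Whether the change between classifications differed between CC and oocytes was tested directly, in 8083 transcripts that passed the filter in both tables. By the study's methods the CC and oocyte pools came from the same complexes, and this fit treats the libraries as independent. LDHA differed from small to large, with a change 1.07 ± 0.30 (SE) higher on the log2 scale in CC than in oocytes (limma adjusted p = 0.766). PDK1 differed as well, by 0.96 ± 0.33 (SE; limma adjusted p = 0.883). These were 2 of 9 members, beside 1.13% of all transcripts. When CC minus oocyte was taken within each replicate number, an alternative chosen after seeing the data, neither LDHA nor PDK1 met the threshold, and 0 of 9 members did. The sizes, 1.07 and 0.96, are the same in both fits by construction, because both take the same difference of group means. The fit within replicate numbers also left out the spontaneous pools, so why these 2 calls were lost was not tested. For the change from small to spontaneous LDHA alone differed, by 0.93 ± 0.32 (SE; limma adjusted p = 0.725), 1 of 9 members beside 1.22%. For large to spontaneous 0 of 9 members differed, beside 0.903%. SLC16A3 gave 0.29 (95% interval -1.64 to 2.22) from small to large, so its change in CC cannot be told apart from that in oocytes at this spread. Without mitochondrially encoded genes PDK1 (0.86) and the second LDHA difference (0.77) missed the threshold, while the first LDHA difference stayed past it. In that setting the median difference over all transcripts was -0.09 from small to large against 0.01 before, and the transcripts past the threshold split into 26 higher and 64 lower in CC against 47 and 44. For small and spontaneous the split was 35 and 74 against 72 and 27, and for large and spontaneous 49 and 25 against 56 and 17.

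Across cell types the values are a description, since the tables were scaled separately. All CC pools were above all oocyte pools for 3 of 10 members (LDHB, MPC2 and PDHA1), beside 13.4% of 11431 transcripts listed in both tables and retained in at least one. All oocyte pools were above all CC pools for 0 members, beside 22.9% of those transcripts. The median in CC was 13.0-fold that in oocytes for SLC16A3, 8.75-fold for MPC2, 8.50-fold for PDK4, 6.77-fold for LDHB, 5.32-fold for PDHA1, 4.83-fold for MPC1 and 2.73-fold for LDHA.

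Ratios of related genes within a pool depend little on how the pool was scaled, and only differences in a ratio between groups are read here, because the transcripts differ in length. The log2 ratio of LDHA to LDHB in CC ranged from 0.40 to 2.46 in small pools (median 1.41), from 1.81 to 2.65 in large pools (median 2.34) and from 1.68 to 2.09 in spontaneous pools (median 2.03). In 5 of the 6 small pools the ratio lay below every large pool, and the exception was small replicate 3. In oocytes the ratio was higher, with a median of 3.03 over 16 pools against 1.95 over 17 CC pools, and the medians of the classifications were 3.21, 3.19 and 2.88 in small, large and spontaneous pools.

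The log2 ratio of SLC16A3 to SLC16A1, the exporter against the carrier for either direction, was -1.64 to 0.61 in small CC pools (median -0.56), -0.02 to 1.22 in large CC pools (median 0.24) and -0.76 to 1.15 in spontaneous CC pools (median -0.12). Over all pools its median was -0.03 in CC and -4.33 in oocytes, and no oocyte pool reached the lowest CC pool. The log2 ratio of PDK1 to PDK4 had medians of 1.09 in CC and 4.37 in oocytes, where low PDK4 makes it depend on the pseudocount. That of MPC1 to MPC2 was 0.13 to 1.49 in CC and -0.70 to 3.24 in oocytes, a wider spread around medians of 0.54 and 1.32. Oocyte ratios with low MPC2 or SLC16A3 depend on the pseudocount too. At 0.1 the highest oocyte MPC1 to MPC2 ratio was 5.68. The SLC16A3 to SLC16A1 median was then -4.57 over all oocyte pools, and -7.36 against -5.61 in small ones.

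**Figure D4:**
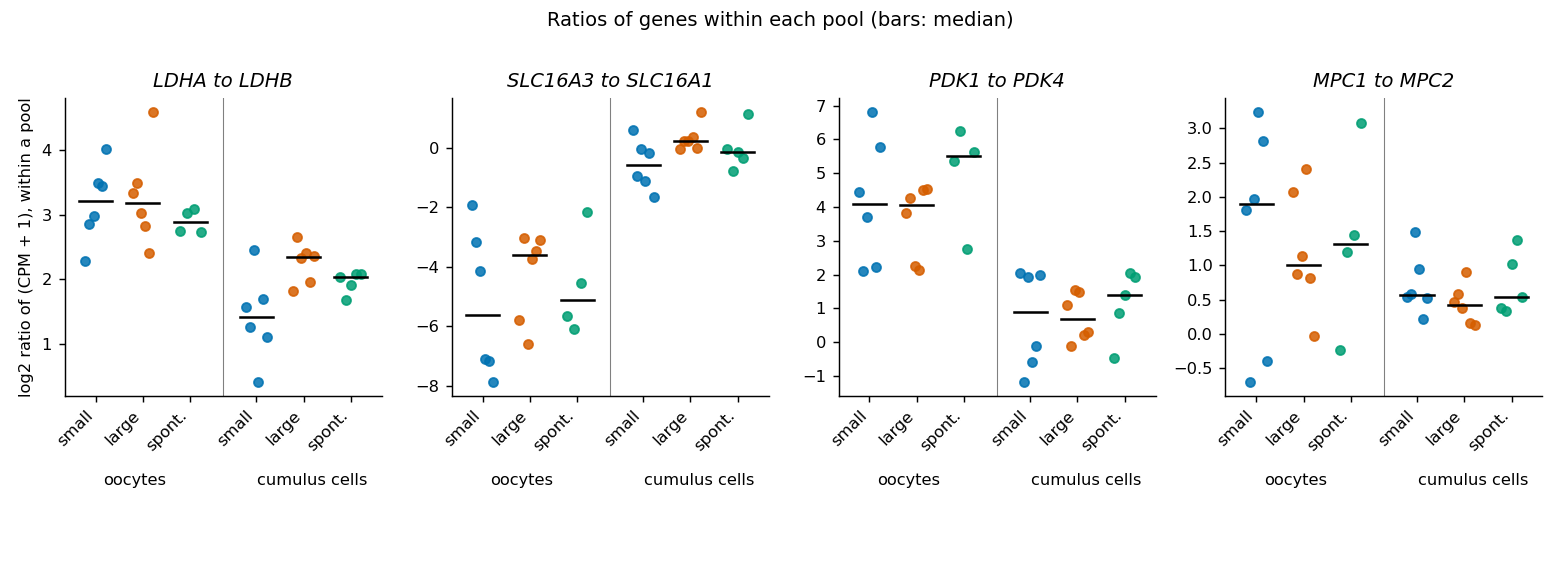
Log2 ratio of (CPM + 1) of related genes within each pool (y axis) by cell type and follicle classification (x axis). Points are pools and bars are medians. The LDHA to LDHB ratio has medians of 1.41, 2.34 and 2.03 in small, large and spontaneous CC, and the SLC16A3 to SLC16A1 ratio separates all oocyte pools from all CC pools.

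LDHA, SLC16A3 and PDK1 varied together across the 17 CC pools. Of 81 pairs of members tested over pools of one cell type, 3 of 45 pairs in CC and 0 of 36 in oocytes had a permutation p under 0.05 after Benjamini-Hochberg adjustment over all 81. LDHA and SLC16A3 gave Pearson r = 0.90 (permutation p = 3e-05, adjusted p = 0.00108) and Spearman rho = 0.79 (permutation p = 0.00022, adjusted p = 0.00891). Without the 2 pools farthest from the median of LDHA r was 0.78, and with values centered on the means of the classifications it was 0.81. The centered r pools all classifications, and r was not computed within each. Among large CC pools the one with the most LDHA, replicate 4 at 1709 CPM, had the least SLC16A3, 63.6 CPM. Among spontaneous CC pools replicate 5 was highest in both, at 1712 and 110 CPM.

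LDHA and PDK1 gave r = 0.83 (permutation p = 2e-05, adjusted p = 0.00108) and rho = 0.83 (permutation p = 1e-04, adjusted p = 0.0081), and r = 0.71 both without the 2 farthest pools and with centered values. SLC16A3 and PDK1 gave r = 0.84 (permutation p = 4e-05, adjusted p = 0.00108) and rho = 0.78 (permutation p = 0.00039, adjusted p = 0.0105), with r = 0.73 without the 2 farthest pools and with centered values. Within small CC the 3 pools lowest in LDHA, at 504, 614 and 753 CPM, were also the 3 lowest in SLC16A3, at 20.3, 19.9 and 25.5 CPM, and in PDK1, at 36.4, 39.5 and 42.5 CPM. When mitochondrially encoded genes were left out of the CPM, r was 0.91 for LDHA and SLC16A3, 0.83 for LDHA and PDK1 and 0.85 for SLC16A3 and PDK1. The values of a pool share its library and depth. In oocytes r between members lay from -0.53 to 0.55, and the smallest adjusted permutation p was 0.358.

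**Figure D5:**
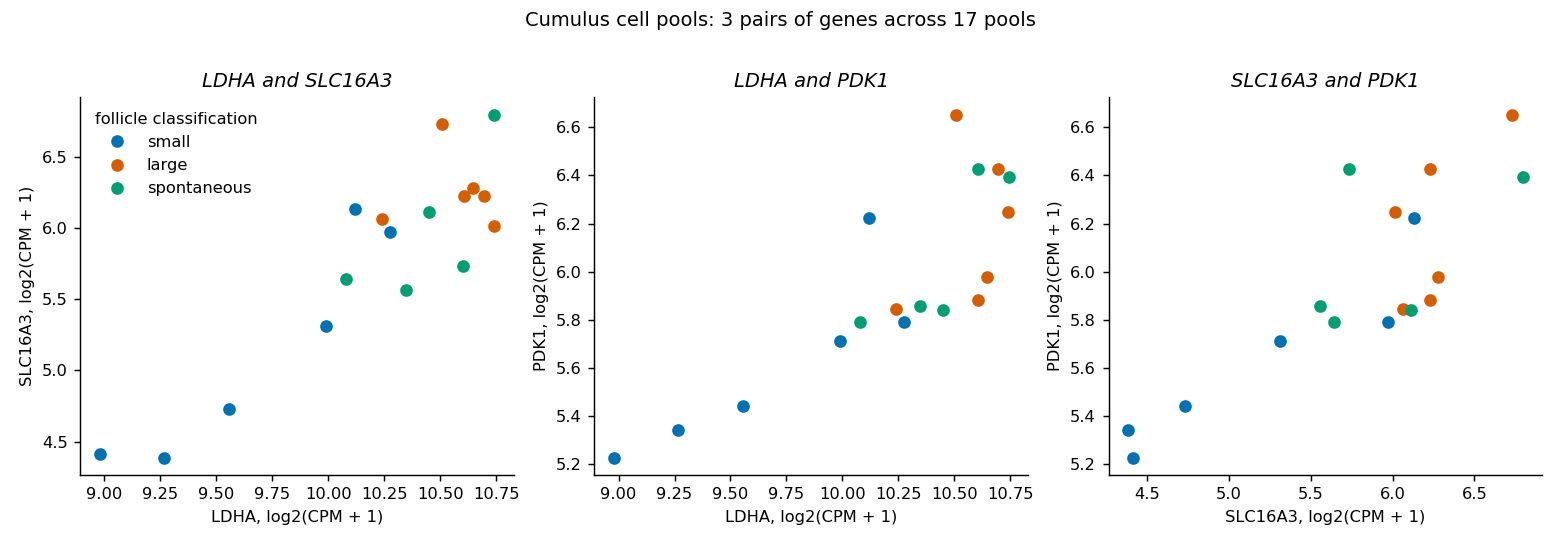
Log2(CPM + 1) of LDHA, SLC16A3 and PDK1 in 3 pairwise plots over the 17 CC pools, colored by follicle classification. Pearson r is 0.90 for LDHA and SLC16A3, 0.83 for LDHA and PDK1 and 0.84 for SLC16A3 and PDK1, and 3 small pools lie lowest in all panels.

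The transcripts most alike to each member over all pools of a table, by Pearson r of log2(CPM + 1) over 17 CC or 16 oocyte pools, are given as a description. In CC the 3 most alike to LDHA were SLC16A3 (0.90), PGAM4 (0.89) and TPI1, triosephosphate isomerase (0.88). Those most alike to SLC16A3 were LDHA (0.90), GPI, glucose-6-phosphate isomerase (0.85), and PDK1 (0.84), and those most alike to PDK1 were GPI (0.91), TPI1 (0.88) and BNIP3 (0.85). LDHB was most like MRFAP1 (0.93), LAMP1 (0.91) and TMC6 (0.89), and PDK4 most like JUP (0.94), CASKIN2 (0.83) and CITED2 (0.83). The remaining members in CC were most like PLA2G4A (0.91), TSNAX (0.90) and USP38 (0.90) for MPC2, SRP68 (0.80), SERTAD3 (0.73) and BNIP2 (0.73) for MPC1, and OTUB1 (0.82), PPP1R11 (0.81) and CYB5B (0.80) for PDHA1. For SLC16A1 they were ISG20 (0.80), RHNO1 (0.75) and ZNF829 (0.73), and for SLC16A7 KLHDC1 (0.90), CUX1 (0.87) and PTPRF (0.87).

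In oocytes LDHA was most like FAM83D (0.79), CD320 (0.77) and PSMB7 (0.77), LDHB like HSPE1 (0.76), CREBL2 (0.76) and RPS9 (0.75), and SLC16A1 like ITGA4 (0.83), CRLS1 (0.80) and USP16 (0.77). SLC16A3 was most like NUCKS1 (0.86), NDUFA4L2 (0.85) and PYGL (0.79). MPC1 was most like TMSB10 (0.86), MARCKS (0.83) and RPL10 (0.83), and MPC2 like FMNL3 (0.79), RPL30 (0.79) and RPN2 (0.79). PDHA1 was most like YARS (0.78), GMIP (0.76) and POLG2 (0.76), PDK1 like IFIT3 (0.79), CLDN12 (0.78) and SCN2A (0.73), and PDK4 like NIT1 (0.84), PAK6 (0.81) and CFL1 (0.81).

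Other genes of the same routes were read from 4 lists with 41 genes outside the members, of which 28 passed the filter in oocytes and 26 in CC. From small to large CC 0 of the 26 met the threshold, beside 0.813% of all transcripts. Between small and spontaneous CC 2 did, beside 2.38%, both higher in spontaneous as were 221 of the 231 transcripts past it. For large and spontaneous CC 0 did, beside 1.66%. In oocytes 1 of 28 met it from small to large, beside 0.655%, and 0 in the other comparisons, beside 0.774% and 0.943%. The median log2 fold change of these genes was 0.10 from small to large CC, 0.33 between small and spontaneous and 0.08 between large and spontaneous CC, beside 0.05, 0.16 and 0.11 over all transcripts.

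Both calls in CC came from lists that hold carriers, of monocarboxylates with their chaperones and of the malate-aspartate shuttle. BSG, which encodes basigin, the chaperone that MCT1 and MCT4 need to reach the plasma membrane, was 258 ± 49.8 CPM (SD, n = 6) in small and 359 ± 24.6 CPM (SD, n = 5) in spontaneous CC. Its log2 fold change was 0.50 ± 0.16 (SE; limma nominal p = 0.00695, adjusted p = 0.404, exact permutation p = 0.00866), lost under median-of-ratios scaling, without mitochondrially encoded genes, with edgeR and with DESeq2, and without any 1 of 8 pools. SLC25A13, an aspartate and glutamate carrier of the malate-aspartate shuttle, was 12.9 ± 4.79 CPM (SD, n = 6) in small and 25.5 ± 6.45 CPM (SD, n = 5) in spontaneous CC. Its log2 fold change was 0.96 ± 0.27 (SE; limma nominal p = 0.00277, adjusted p = 0.346, exact permutation p = 0.00866), and it missed the threshold with all 3 classifications in one fit, with the replicate number as a block and without spontaneous replicate 5.

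In the pyruvate dehydrogenase list PDHB, the beta partner of PDHA1 in the same enzyme, was the call in oocytes. It was 5.45 ± 5.41 CPM (SD, n = 6) in small and 18.5 ± 11.5 CPM (SD, n = 6) in large oocyte pools, a log2 fold change of 1.88 ± 0.62 (SE; limma nominal p = 0.00507, adjusted p = 0.997, exact permutation p = 0.0195). PDHB thus had the higher mean in large and PDHA1 in small oocyte pools. The call of PDHB was lost without the filter, with the replicate number as a block, with edgeR, with DESeq2 and without any 1 of 5 pools. The change of PDHB in CC minus that in oocytes was -1.75 ± 0.58 (SE; limma adjusted p = 0.766), and it missed the threshold when taken within replicate numbers.

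LDHA, SLC16A3 and PDK1 are textbook targets of hypoxia-inducible factor, so 12 further targets of that factor were read as a list, 11 of which were listed and retained in CC. Because such a list had been chosen with the study's differentially expressed transcripts known, its direction is not independent evidence. From small to large CC 2 of 11 met the threshold, beside 0.813% of all transcripts (67 of 79 of them higher in large), both higher in large, namely SLC2A1, the glucose transporter GLUT1 (0.99 ± 0.21 SE, adjusted p = 0.522), and BNIP3, a mitophagy receptor (0.85 ± 0.29 SE, adjusted p = 0.999). All 11 had a log2 fold change above 0, with a median of 0.62 beside 0.05 over all transcripts. SLC2A1 was 113 ± 13.1 CPM (SD, n = 6) in small and 236 ± 88.1 CPM (SD, n = 6) in large CC, without overlap (exact permutation p = 0.00216, the smallest possible). It kept its call in the 8 other settings and without any 1 of the 12 pools, whereas BNIP3 lost it in 5 settings and without any 1 of 8 pools. The study had reported SLC2A1 as higher in large than in small CC, so its call and its stability are not independent evidence.

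From small to spontaneous CC 5 of the 11 met the threshold, 4 higher in spontaneous (SLC2A1 at 0.74, BNIP3 at 0.89, P4HA1 at 0.52 and MXI1 at 0.56) and ADM, adrenomedullin, lower at -0.75. ADM was also lower in spontaneous than in large CC, at -0.84. Over all transcripts 2.38% met it, 221 of 231 higher in spontaneous, a direction that fell to 79 of 126 under median-of-ratios scaling and 67 of 120 without mitochondrially encoded genes. The ADM calls held in all 8 settings and without any 1 pool. P4HA1, MXI1 and BNIP3 lost theirs under both of those scalings, in edgeR and in DESeq2, MXI1 also with the replicate block. Leaving out 1 pool ended the call of MXI1 in 9 of 11 fits, of P4HA1 in 8 and of BNIP3 in 1, and SLC2A1 lost this call without mitochondrially encoded genes (0.57). In oocytes 0 of 10 retained targets met the threshold in the comparisons with small pools, and 1 (CA9, at -0.91) from large to spontaneous, beside 0.943% of all transcripts. The CA9 call was lost with the replicate block and without any 1 of 3 pools.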

How the data were processed

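Libraries were sequenced from 16 oocyte and 17 CC pools. After trimming, the authors used Hisat2 with the UMD3.1 assembly and featureCounts with Ensembl genes, and they deposited CPM (reads on a gene per 1000000 reads on all genes of the library), 1 table per cell type. All values came out as whole reads (100% within 0.02 reads), so reads were recovered for edgeR and DESeq2 as alternatives.

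CPM were compared with limma 3.58.1 (trended variance, R 4.3.3) on log2(CPM + 1), pairwise between classifications, after a filter of 5 CPM in 4 oocyte or 5 CC pools. A call needed a nominal p of 0.01 or less, and, in comparisons with small oocytes, also without small replicate 3, the shallowest oocyte library. The study ran such a second analysis because its oocyte library 3 had outlying profiles for some transcripts. Small replicate 3 held 5.00% of its CPM on mitochondrially encoded proteins, the most of any oocyte pool. Adjusted p-values are Benjamini-Hochberg over all transcripts tested. Differences between cell types were fitted jointly in 33 pools as independent libraries, although CC and oocyte pools came from the same complexes. The spontaneous group has 4 oocyte but 5 CC pools, so numbers there may not match between cell types. A fit of CC minus oocyte within replicate numbers, for small and large pools, was added after seeing the data. Exact permutation tests and correlations (100000 resamples) used scipy 1.17.1. Alternatives were a pseudocount of 0.1, no filter, median-of-ratios scaling, leaving out mitochondrially encoded genes, 1 fit of all classifications, a replicate block, edgeR 4.0.16, DESeq2 1.42.0 and leaving out each pool. The fits were tested on simulated data.

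The members and all gene lists were chosen with earlier results of these data known. Named genes are the members, the list genes past the threshold and the 3 transcripts most alike to each member. Strandedness of the counting is not given in the sources used here, so overlapping antisense reads and reads of near-identical copies (PGAM4 among them) are uncertain. Within groups no pair of pools agreed within sampling noise.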

Additional observations from a re-analysis of the deposited data

Results flagged for a closer look

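Dixon's criterion is met by chance in about 1 of 20 groups of normally distributed values, which CPM of scarce genes with zeros are not. Of 58 groups of 4 to 6 pools, 9 had a pool far from the others by that criterion. For SLC16A3 these were oocyte small replicate 1 at 25.6 CPM, oocyte spontaneous replicate 4 at 24.1 CPM and CC large replicate 2 at 105 CPM. For PDK4 they were oocyte spontaneous replicate 3 at 7.66 CPM, CC large replicate 2 at 108 CPM and CC spontaneous replicate 1 at 79.8 CPM. CC large replicate 2 thus stood apart in both genes. The others were SLC16A7 in oocyte large replicate 5 at 2.95 CPM, MPC1 in CC large replicate 4 at 81.2 CPM and PDHA1 in CC spontaneous replicate 1 at 48.9 CPM, the only low one.

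The change between classifications differed between cell types, in the joint limma fit, for LDHA from small to large (1.07 higher in CC on the log2 scale), PDK1 from small to large (0.96) and LDHA from small to spontaneous (0.93). None passed adjustment over 8083 transcripts, with adjusted p-values of 0.766, 0.883 and 0.725. The 2 differences from small to large missed the threshold when taken within replicate numbers.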

How the results depend on the processing

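The log2 fold changes of LDHA, SLC16A3 and PDK1 in both CC comparisons with small pools stayed above 0 in every setting run. With edgeR 0 members met the threshold from small to large CC and with DESeq2 1 did. From small to spontaneous CC 0 members met it under median-of-ratios scaling, without mitochondrially encoded genes, with the replicate block, with edgeR and with DESeq2. Without mitochondrially encoded genes 1 member differed between cell types from small to large and 0 from small to spontaneous. Transcripts past the threshold from small to spontaneous CC numbered 126 under median-of-ratios scaling, 120 without mitochondrially encoded genes and 128 with edgeR, and from small to large CC 137 with all classifications in 1 fit. In oocytes DESeq2 gave 113 from small to large, 121 between small and spontaneous and 181 between large and spontaneous. The causes were not tested.

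Signs turned only for changes that met no threshold. With edgeR these were PDK4 (-0.52) and MPC1 (-0.21) from small to large oocytes, LDHA (-0.075) and SLC16A3 (0.032) from large to spontaneous oocytes, LDHB (-0.0086) and PDHA1 (-0.044) from small to large CC and SLC16A1 (-0.060) from large to spontaneous CC. With DESeq2 they were PDK4 (-0.52), MPC1 (-0.22), LDHA (-0.066), SLC16A3 (0.039), LDHB (-0.0096), PDHA1 (-0.040) and SLC16A1 (-0.060) in the same comparisons, and MPC2 (-0.0038) from large to spontaneous CC. Under median-of-ratios scaling they were LDHB (-0.015) and PDHA1 (-0.049) from small to large CC and SLC16A1 (-0.028) from large to spontaneous CC. Without mitochondrially encoded genes they were LDHB (-0.073) and PDHA1 (-0.11) from small to large CC, and the differences between cell types of LDHB from small to spontaneous (-0.057) and SLC16A1 from large to spontaneous (-0.028). With a pseudocount of 0.1 they were SLC16A7 from small to large CC (-0.21) and the differences between cell types of PDK4 (-0.59) and SLC16A3 (-0.79) from small to large and of SLC16A3 (-0.96) from small to spontaneous, and the median PDK1 to PDK4 ratio in spontaneous oocytes became 7.39.

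Pools of 1 cell type with the same replicate number showed correlations of -0.19 to 0.22 in their deviations. With 4 to 6 pairs per comparison, whether the numbers pair these pools cannot be told. With the replicate block, 42 transcripts met the threshold from small to spontaneous oocytes, where SLC16A1 (0.19), SLC16A3 (-0.34) and LDHB (-0.10) turned sign. So did SLC16A1 (-0.0027) and SLC16A3 (0.18) from large to spontaneous oocytes, MPC2 (0.040) and MPC1 (0.015) from small to spontaneous CC, and SLC16A1 (-0.10) from large to spontaneous CC. For differences between cell types, taking CC minus oocyte within replicate numbers left 0 members past the threshold from small to large. Deviations of same-numbered CC and oocyte pools correlated at -0.040 to 0.077, and the labels do not say whether numbers match between cell types. Of the oocyte pools, 3 of 6 small and 1 of 6 large correlated best with the CC pool of their own number. Within a cell type at most 1 pool per comparison correlated best with its own number.

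Leaving out 1 pool at a time gave 47 to 93, 49 to 130 and 75 to 145 transcripts past the threshold in the oocyte comparisons (small with large, small with spontaneous, large with spontaneous), and 52 to 113, 141 to 313 and 88 to 232 in CC. Members past it numbered 2 to 3 from small to large CC, 0 to 2 from small to spontaneous CC and 0 in oocytes. From small to large oocytes PDK4 ranged from -0.23 to 0.60, SLC16A1 from -0.33 to 0.049, MPC2 from -0.071 to 0.58 and MPC1 from -0.14 to 0.41. From small to spontaneous oocytes SLC16A1 ranged from -0.28 to 0.096, SLC16A3 from -0.26 to 1.13 and LDHB from -0.022 to 0.25. From large to spontaneous oocytes LDHA ranged from -0.12 to 0.20, SLC16A1 from -0.054 to 0.10, PDK1 from -0.0017 to 0.28, SLC16A3 from -1.06 to 0.12 and PDHA1 from -0.030 to 0.15. In CC, LDHB ranged from -0.053 to 0.13, PDHA1 from -0.064 to 0.075 and SLC16A7 from -0.20 to 0.50 from small to large, PDK4 from -0.39 to 0.31, MPC2 from -0.093 to 0.040 and MPC1 from -0.15 to 0.10 from small to spontaneous, and SLC16A1 from -0.10 to 0.19 from large to spontaneous. Depth limits SLC16A7 in CC, where 3 reads were worth up to 1.57 CPM.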
